A study of Arabidopsis thaliana with 8 samples.

Results

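Gene expression was compared between wild-type (WT) Arabidopsis thaliana roots kept in liquid medium with the cytokinin benzyladenine (BA) and WT roots kept in the same medium without it. The comparison used every library labelled WT BA or WT Control, 4 of the 8 libraries of the series, and 22682 of 27628 gene loci passed a filter on low counts and were tested. Plants had grown upright for 1 week on solid 0.5x Murashige and Skoog medium before roots were severed and submerged. The BA medium held 0.1 uM BA; the sources used here do not state how long it lasted. The other 4 libraries were roots of the hy5 mutant, which lacks the light-response transcription factor HY5, with the same 2 media and 2 libraries each; the labels name no allele. All libraries were made from polyadenylated RNA of severed roots, so the controls share the cutting and the submersion.

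Cytokinins are adenine-derived plant hormones. Membrane receptors pass phosphate through shuttle proteins to type-B response regulators, transcription factors that raise the type-A response regulators, which in turn dampen the signal. In roots, cytokinin is known to restrain elongation and lateral root formation and to act in the patterning of vascular tissue.

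The 4 promoters below belong to genes that rose at least 4-fold with BA at a mean level of at least 1 log2 CPM (counts scaled to library size), and hold the heptamer AAGATCT upstream of the start. They are shown because this heptamer contains AGATC, a core that type-B response regulators are known to bind, and was more frequent before strongly raised genes than before genes in general. Each run is the 250 bases before the annotated transcript start in the TAIR10.1 reference, 5′ to 3′ on the strand of the gene, and the capitals mark AAGATCT or its reverse complement AGATCTT, merged where both overlap. ARR7, a type-A response regulator, lies on the minus strand, and its run covers chr1:6579315-6579564. IAA5, an auxin-response repressor, lies on the minus strand with its run at chr1:5366498-5366747. TPR12, which encodes a tetratricopeptide repeat protein and went from 39.5 and 50.3 CPM in WT Control to 207 and 171 CPM in WT BA, lies on the minus strand with its run at chr1:29396106-29396355. CKX6, a cytokinin oxidase that breaks cytokinins down, lies on the plus strand with its run at chr3:23423907-23424156.
ARR7: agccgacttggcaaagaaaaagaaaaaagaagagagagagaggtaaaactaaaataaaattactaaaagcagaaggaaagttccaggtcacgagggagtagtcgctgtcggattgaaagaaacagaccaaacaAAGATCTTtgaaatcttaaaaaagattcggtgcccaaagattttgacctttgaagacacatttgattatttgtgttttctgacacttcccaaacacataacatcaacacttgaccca
IAA5: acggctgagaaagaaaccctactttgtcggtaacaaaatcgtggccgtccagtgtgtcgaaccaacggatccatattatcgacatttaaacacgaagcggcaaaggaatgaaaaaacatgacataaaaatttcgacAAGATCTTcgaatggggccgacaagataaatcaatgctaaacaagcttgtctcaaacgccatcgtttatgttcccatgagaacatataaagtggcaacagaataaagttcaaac
TPR12: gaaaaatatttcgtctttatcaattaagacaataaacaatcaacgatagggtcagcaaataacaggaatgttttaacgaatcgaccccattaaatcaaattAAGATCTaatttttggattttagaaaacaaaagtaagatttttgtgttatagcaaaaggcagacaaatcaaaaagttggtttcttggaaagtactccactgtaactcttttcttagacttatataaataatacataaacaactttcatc
CKX6: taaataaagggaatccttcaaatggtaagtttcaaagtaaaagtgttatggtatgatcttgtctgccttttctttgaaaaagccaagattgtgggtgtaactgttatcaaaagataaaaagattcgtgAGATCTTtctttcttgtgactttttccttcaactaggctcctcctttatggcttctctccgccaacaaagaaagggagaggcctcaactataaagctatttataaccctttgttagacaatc

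Searched on both strands from 250 bases before to 50 after the start, AAGATCT was present in 4.02% of the 22536 promoters read for tested genes. It was present in 8.06% of the 186 promoters of genes called higher by at least 2-fold, in 16.3% of the 43 of genes called higher by at least 4-fold, and in 3.07% of the 976 of genes called lower. In the DC1 family, of which many members fell, AAGATCT was present in 7.75% and AGATC in 41.9% of 129 promoters, close to their shares in the genes 2-fold higher. ARR7 had a further match 25 bases after its start. The shorter AGATC, which AAGATCT contains, was present in 31.3% of all promoters, 42.5% of those of genes 2-fold higher and 53.5% of those 4-fold higher. AGATT, the other core known to be bound by type-B response regulators, was present in 69.3%, 73.7% and 67.4% of the same sets, and AGATTTT, which contains it, in 18.7%, 25.8% and 16.3%. CACGTG, the G-box bound by HY5 and other bZIP factors, was present in 8.41%, 6.45% and 4.65%, and TGTCTC, the auxin response element, in 14.1%, 18.3% and 27.9%. The motifs were chosen with earlier results of these data known, and these shares are descriptions without a test.

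Total estimated counts lay between 29928501 and 33875892 in the 4 WT libraries. A pair of hy5 libraries stood apart in the form of their values: estimated counts that were not whole but within 0.001 of one made up 21.58% of transcripts in hy5 Control 1 and 23.55% in hy5 BA 2, and 1.34 to 1.53% elsewhere. Both enter the shared estimate of the spread, and values without them are given where results rest on them. HY5 stood at 32.4 and 31.1 CPM in WT Control and 31.0 and 31.3 CPM in WT BA, a log2 fold change of -0.03 ± 0.11 (SE, adjusted p = 0.91), and at 0.826 to 1.97 CPM in the hy5 libraries. The 8 root markers, among them PYK10, SCR and PLT1, were all detected and summed to 4990 and 4740 CPM in WT Control and 5690 and 6020 CPM in WT BA, with 1 of 8 lower (SCR). The shoot and leaf markers summed to 97.9 and 139 CPM in WT Control and 143 and 98.7 CPM in WT BA; none was at 0, and none of the 9 tested was called, with log2 fold changes from -1.75 to 3.24. Xylem markers summed to 357 to 441 CPM in WT Control and 350 to 386 CPM in WT BA, with none of 6 called and 3 called lower without WT Control 2. Phloem markers summed to 212 to 234 and 219 to 231 CPM, with 1 of 6 lower, APL.

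BA changed 1861 genes, 8.2% of those tested: 879 rose (3.88%) and 982 fell (4.33%). The rises were the larger changes. Among rising genes the median log2 fold change was 0.53 and the top 10% exceeded 1.49, whereas among falling genes the median size was 0.4 and the top 10% exceeded 0.75. At least 2-fold rises were seen at 186 genes (0.82%) and at least 2-fold falls at 34 (0.15%), and 43 genes rose and 3 fell by at least 4-fold. The rising genes together held 3.28% and 3.27% of the scaled counts in the 2 WT Control libraries and 4.63% and 4.74% in the 2 WT BA libraries. The falling genes held 6.86% and 6.3% in WT Control and 5.18% and 4.96% in WT BA. A symbol is missing from the annotation for 450 of the rising and 523 of the falling genes, so many are named here by locus code. These are bulk samples, in which fewer cells of a type and less RNA per cell cannot be told apart.

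Changes were called with edgeR's quasi-likelihood test at a Benjamini-Hochberg adjusted p under 0.05, and every called gene had BA values that all lay on 1 side of both control values. The labels do not say that replicates came from separate plants or cultures, so p-values measure the spread between these libraries. The falls depended on single libraries more than the rises: leaving out WT Control 1 left 320 falling genes, and leaving out WT BA 2 left 328 falling and 513 rising. The 2-fold falls numbered 17 with WT Control 1 left out, 65 with WT Control 2 left out and 86 with WT BA 1 left out, against 172 to 186 2-fold rises without any 1 WT library. Of the 186 strong rises, 156 were called without each library of the 8 in turn; of the 34 strong falls, 12 were. Without hy5 Control 1 and hy5 BA 2, 646 genes rose and 714 fell in WT.

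**Figure D1:**
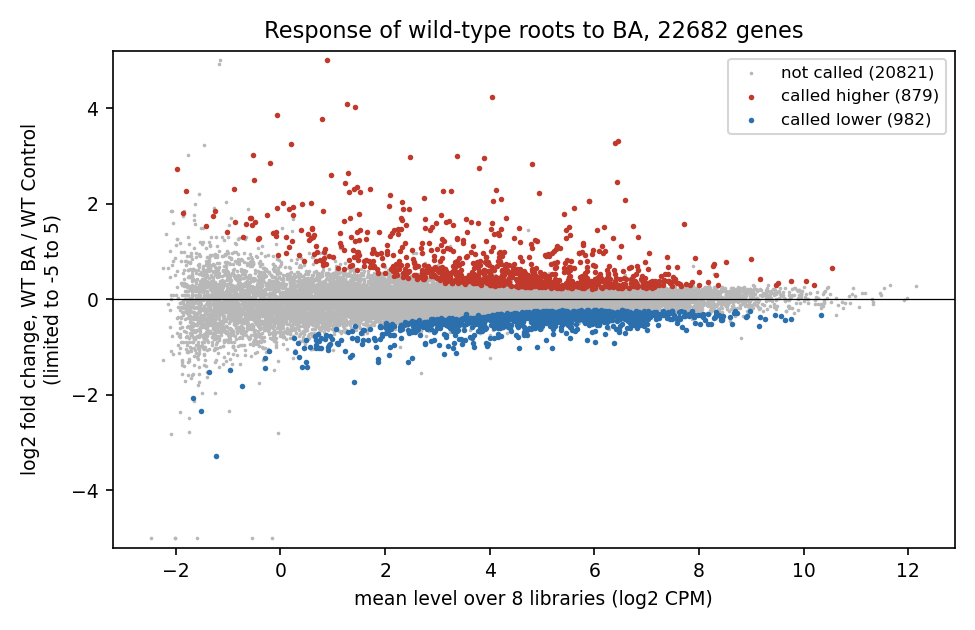
Log2 fold change with BA in WT roots (vertical axis) against the mean level over the 8 libraries in log2 CPM (horizontal axis), 1 point a gene, for 22682 genes. Red points are the 879 genes called higher and blue points the 982 called lower; the red points reach much farther from 0 than the blue ones.

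The largest rises joined familiar cytokinin targets to genes with little annotation. AT1G19040, a NAC-domain transcription factor gene, went from 1.67 and 2.13 CPM in WT Control to 39.4 and 32.1 CPM in WT BA, a log2 fold change of 4.24 ± 0.14 (SE, adjusted p = 2.03e-11). AT1G34520, which encodes a membrane-bound O-acyl transferase, went from 0.351 and 0.349 to 6.05 and 5.47 CPM (4.03 ± 0.22, adjusted p = 6.84e-09). AT1G06980, annotated as a lumazine synthase, went from 0.293 and 0.285 to 5.2 and 4.73 CPM (4.08 ± 0.24, adjusted p = 1.37e-08). In these 3 genes the control libraries lay close to each other and far below both BA libraries.

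Further transcription factor genes among the 16 largest rises were ASL9, AT1G68360 and IAA5. ASL9, a LOB-domain factor also known as LBD3, went from 4.3 and 5.11 CPM to 37.5 and 35.1 CPM (log2 fold change 2.95 ± 0.14, adjusted p = 6.84e-09), and its relative LBD4, outside the 16, from 3.6 and 4.16 to 16.4 and 17.0 CPM (2.11 ± 0.12, adjusted p = 1.37e-08). AT1G68360, a C2H2 zinc-finger gene, went from 1.29 and 1.27 to 9.47 and 10.6 CPM (2.97 ± 0.15, adjusted p = 4.37e-09). In all 3 the control libraries lay close together and far below both BA libraries. IAA5 went from 0.965 and 0.666 to 3.55 and 4.6 CPM (2.31 ± 0.21, adjusted p = 2.72e-06); it overlaps AT1G15570 on the other strand, and without strand information reads of the pair cannot be told apart. The type-A response regulators were all raised, 10 of 10, with a median log2 fold change of 1.97; ARR7 went from 18.6 and 20 to 197 and 185 CPM, RR5 (ARR5) from 17.5 and 16 to 164 and 160 CPM, and ARR4 from 29.4 and 29.9 to 165 and 161 CPM.

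The rest of the largest rises had varied products. AT2G30540, a thioredoxin superfamily gene, went from 2.37 and 2.35 to 17.0 and 20.7 CPM (log2 fold change 3.0 ± 0.18, adjusted p = 1.61e-07). RTFL7, a small peptide of the ROTUNDIFOLIA-like family that is linked to organ shape, went from 1.14 and 0.888 to 6.18 and 6.49 CPM (2.63 ± 0.18, adjusted p = 8.5e-08). AT5G38240, a protein kinase gene, went from 1.11 and 1.14 to 5.85 and 6.27 CPM (2.42 ± 0.18, adjusted p = 1.96e-07). Both groups of all 3 genes were tight relative to the change. The uncharacterized AT5G03890 rose by 2.74 ± 0.15, AT3G05770 by 2.35 ± 0.24 and the XRI1-like AT1G14630 by 2.31 ± 0.18 on the log2 scale. All 16 were called under every alternative setting and without each library in turn.

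**Figure D2:**
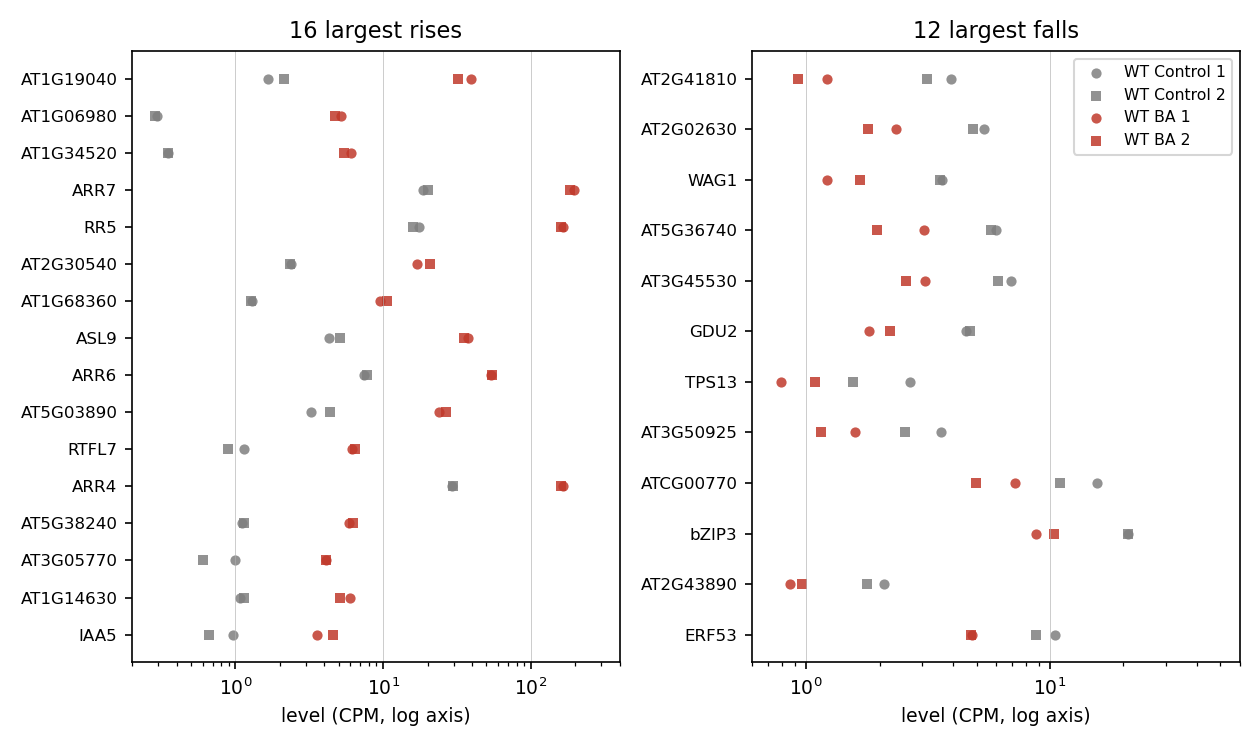
Level of the 16 genes with the largest rise (left) and the 12 with the largest fall (right) in each WT library, in CPM on a log axis; grey points are WT Control, red points WT BA, circles replicate 1 and squares replicate 2. BA and control libraries do not overlap at any gene, and the gap is wider on the left, where AT1G19040 goes from 1.67 and 2.13 to 39.4 and 32.1 CPM.

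The falls were smaller and several were of low genes. AT2G41810, annotated as an imidazolonepropionase of unknown function, went from 3.92 and 3.14 CPM in WT Control to 1.22 and 0.927 CPM in WT BA (log2 fold change -1.72 ± 0.21, adjusted p = 6.78e-05). WAG1, a kinase that acts on the PIN auxin carriers, went from 3.6 and 3.55 to 1.22 and 1.66 CPM (-1.31 ± 0.19, adjusted p = 0.000315). bZIP3, a leucine-zipper transcription factor, went from 20.9 and 20.9 to 8.75 and 10.4 CPM (-1.13 ± 0.10, adjusted p = 2.72e-06). In each the higher BA value stayed well below the lower control value. ERF53, an AP2/ERF factor, went from 10.5 and 8.79 to 4.77 and 4.76 CPM (-1.02 ± 0.12, adjusted p = 3.79e-05). GDU2, a glutamine dumper protein of amino acid export, went from 4.53 and 4.69 to 1.81 and 2.21 CPM (-1.20 ± 0.17, adjusted p = 0.000212). AT5G36740, an acyltransferase gene with a near-identical copy (AT5G36670) that makes its counts uncertain, went from 6.0 and 5.74 to 3.03 and 1.95 CPM (-1.24 ± 0.21, adjusted p = 0.00149). AT2G02630 and AT3G45530, with log2 fold changes of -1.31 ± 0.17 and -1.22 ± 0.15, belong to the DC1 family described below. The other 4 of the 12 largest falls, TPS13, AT3G50925, ATCG00770 and AT2G43890, lost the call without WT Control 1, and TPS13 also without WT BA 1.

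Among called genes changed by at least 1.5-fold, those with the highest level per length differed in kind between directions. AT1G78850, a mannose-binding lectin gene, stood at 867 TPM (transcripts scaled for length and depth, mean of 2 libraries) in WT Control and 1320 TPM in WT BA, with 1220 and 1190 against 1870 and 1900 CPM (log2 fold change 0.65 ± 0.09, adjusted p = 0.000164). CYP81F4, which modifies indole glucosinolates, had 325 and 341 against 610 and 528 CPM (0.77 ± 0.08, adjusted p = 1.52e-05); it overlaps the short AT4G37409 on the other strand, whose high TPM rests on its length. GSTU26 and the aspartyl protease gene AT5G19110 rose by 0.69 ± 0.09 and 0.85 ± 0.09 on the log2 scale. Of the abundant falling genes, IAA2, an auxin-response repressor, had 251 and 251 CPM in WT Control and 158 and 164 CPM in WT BA (-0.64 ± 0.07, adjusted p = 3.67e-05). sks9, a relative of the cell-surface protein SKU5, had 184 and 151 against 114 and 101 CPM (-0.64 ± 0.11, adjusted p = 0.00376). The other 3, AT3G57072, AT3G50925 and ATCG00770, lost the call without WT Control 1. ATCG00770 is encoded in the chloroplast genome, of which 5 of 72 genes tested fell (6.94%, against 4.33% of all genes), none of them without WT Control 1 or without WT BA 2. In 65 of the 72 the log2 fold change was below 0, and the median was -0.434.

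Metabolic enzyme families held more rising than falling members. HXXXD-type acyl-transferases, which load acyl groups onto phenolics and other metabolites, had 11 of 50 members raised and 3 lowered (22% and 6.0%, against 3.88% and 4.33% of all genes tested), with a median log2 fold change of 0.078 against 0.009 over all genes. PMAT2, a malonyltransferase of phenolic glucosides, went from 100 and 98.8 to 294 and 296 CPM (1.57 ± 0.08, adjusted p = 6.84e-09). AT3G50300 went from 7.37 and 6.41 to 32.5 and 26.4 CPM (2.09 ± 0.11, adjusted p = 6.84e-09). A falling member was AT5G01210 at -0.51 ± 0.07 (adjusted p = 0.000303). The lowered members numbered 1 without WT BA 2.

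Cytochromes P450 had 19 of 195 members raised (9.74%, against 3.88% of all genes tested) and 8 lowered (4.1%, near the 4.33% of all genes). The lowered members numbered 4 without WT Control 1 and 2 with WT BA 1 or WT BA 2 left out. CYP735A2, the hydroxylase that makes trans-zeatin cytokinins, went from 23.5 and 20.1 to 81.9 and 82.7 CPM (log2 fold change 1.92 ± 0.10, adjusted p = 1.41e-08). CYP78A6, a regulator of seed size, went from 2.75 and 2.06 to 9.21 and 10.6 CPM (2.04 ± 0.15, adjusted p = 2.63e-07). Glutathione S-transferases had 8 of 52 members raised (15.4%) and 1 lowered, with 4 raised without WT Control 1 and 4 without WT BA 2; GSTU1 went from 36.6 and 34.4 to 69.4 and 75 CPM (1.03 ± 0.08, adjusted p = 3.07e-07). UDP-glycosyltransferases had 11 of 119 raised (9.24%) and 7 lowered (5.88%, near the share of all genes). These numbered 7 and 3 without WT BA 2, and 6 and 4 without either hy5 Control library. UGT76D1 went from 56.0 and 44.6 to 147 and 146 CPM (1.54 ± 0.09, adjusted p = 1.73e-08). GRXS13 was the 1 gene raised of 19 annotated by the name glutaredoxin (5.26%, near the 3.88% of all genes). It went from 57.2 and 51.0 to 136 and 128 CPM (1.28 ± 0.08, adjusted p = 3.53e-08). That count rests on the word in the product name, so glutaredoxins annotated otherwise are not in it. How many of the whole glutaredoxin family rose was not counted. Genes annotated as thioredoxin superfamily proteins, counted apart, had 8 of 46 raised and 1 lowered (17.4% and 2.2%). They were not searched for glutaredoxins.

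Among cell wall families, expansins had a share of raised members above that of all genes tested, of which 3.88% rose and 4.33% fell. Expansins, which loosen the wall, had 9 of 25 members raised (36.0%) and 3 lowered (12%), with a median log2 fold change of 0.226; 5 were raised and 1 lowered without WT BA 2, and 1 was lowered without WT Control 1 or either hy5 Control library. EXPA14 went from 6.0 and 5.77 to 12.6 and 11.8 CPM (1.05 ± 0.11, adjusted p = 7.33e-06), and EXPA15 from 15.5 and 16.3 to 31.9 and 31.5 CPM (1.00 ± 0.08, adjusted p = 5.42e-07). EXPA17, known from lateral root emergence, went the other way, from 31.2 and 27.8 to 16.9 and 18.4 CPM (-0.74 ± 0.09, adjusted p = 5.27e-05). None of 28 xyloglucan endotransglucosylases was raised and 1 was lowered (3.57%), which does not set that family apart from all genes. LRX2, a wall protein of root hairs, fell from 33.3 and 27.3 to 19.2 and 17.2 CPM (-0.74 ± 0.10, adjusted p = 0.000122).

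**Figure D3:**
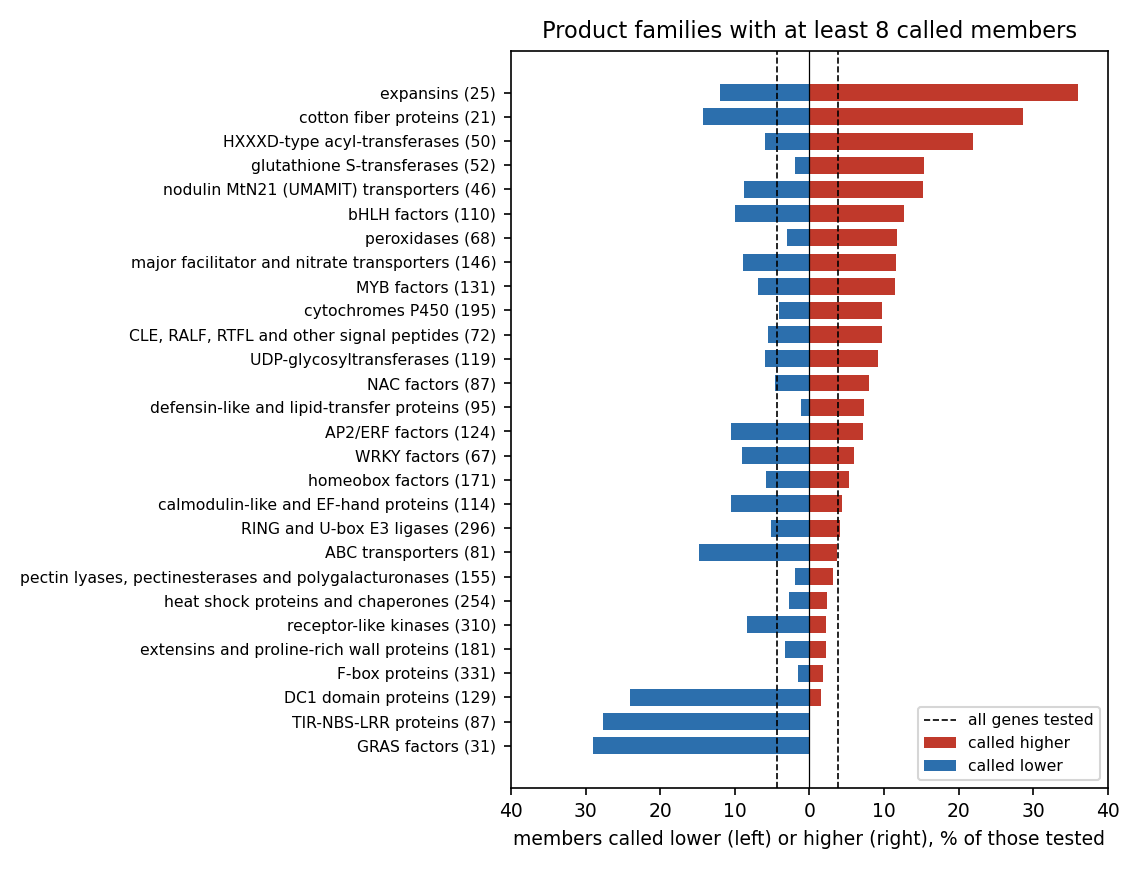
Share of tested members called higher (red bars, to the right) and lower (blue bars, to the left), in percent, for product families with at least 8 called members; the number tested is in brackets and the dashed lines are the shares over all genes, 3.88% and 4.33%. Expansins have the longest bar on the right at 36.0%; DC1, TIR-NBS-LRR and GRAS genes have the longest on the left at 24%, 27.6% and 29.0%.

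The bHLH, MYB and AP2/ERF families of transcription factors had members called in both directions. Of MYB genes 11.5% rose and 6.87% fell, and of AP2/ERF genes 7.26% rose and 10.5% fell. Of all genes tested 3.88% rose and 4.33% fell. Of 110 bHLH genes 14 rose (12.7%) and 11 fell (10%; 5 without WT Control 1 or WT BA 2 and 6 without WT BA 1). AT5G51780, a bHLH gene, went from 41.1 and 35.7 to 111 and 109 CPM (log2 fold change 1.52 ± 0.08, adjusted p = 6.24e-09), and NAI1, which controls the endoplasmic reticulum bodies of Brassicaceae, rose by 0.96 ± 0.07 (adjusted p = 2.75e-07). Of 131 MYB genes 15 rose and 9 fell (8 and 4 without WT BA 2, 9 raised without WT Control 2 and 4 lowered without WT Control 1). MYB34, an activator of indole glucosinolate synthesis, went from 35.6 and 39.3 to 77.1 and 69.3 CPM (0.97 ± 0.08, adjusted p = 9.73e-07), while MYB51, which acts in the same pathway, fell by 0.55 on the log2 scale (SE 0.09, adjusted p = 0.00155). MYB78 went from 18.1 and 16.4 to 8.78 and 8.7 CPM (-0.98 ± 0.10, adjusted p = 8.55e-06). Of 124 AP2/ERF genes 9 rose and 13 fell (5 and 8 without WT BA 2, and 3 raised without WT Control 1), with the ethylene-response factor ERF1 at 19.3 and 20 CPM in WT Control and 10.4 and 12.2 CPM in WT BA.

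In the GRAS family of transcription factors 9 of 31 genes fell (29.0%, against 4.33% of all genes tested). The falls numbered 5 without WT BA 2, and 8 after the correction for transcript length described below. None rose (1 without WT Control 1), against 3.88% of all genes, a share too small to set 31 genes apart. GAI, a DELLA repressor of gibberellin responses, went from 16.8 and 16.6 to 9.21 and 10.2 CPM (log2 fold change -0.78 ± 0.10, adjusted p = 5.58e-05). RGA1, another DELLA gene, fell by 0.31 (SE 0.07, adjusted p = 0.0106), SCL3 by 0.48 (SE 0.08, adjusted p = 0.000684), and SCR, which sets endodermal identity, by 0.38 (SE 0.08, adjusted p = 0.00766) on the log2 scale. RGA1 and SCR lost the call without WT BA 2. In hy5 roots 10 of the 31 fell with BA, against 8.01% of all genes, and none rose. Without hy5 Control 1 and hy5 BA 2, 1 of the 31 fell there, against 1.83% of all genes.

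The family with the most falling members among those examined was that of the DC1 domain proteins, cysteine- and histidine-rich proteins numerous in plants and mostly without an assigned function. Of 129 tested, 31 fell (24%, against 4.33% of all genes) and 2 rose, with a median log2 fold change of -0.255. The fallen genes lay on all 5 chromosomes, their falls ranged from 0.42 to 1.31 on the log2 scale, and 1 of them has a near-identical copy. AT5G43520 went from 22.9 and 19.4 CPM in WT Control to 10.8 and 10.1 CPM in WT BA (-1.02 ± 0.10, adjusted p = 8.52e-06). AT3G45530 went from 6.93 and 6.12 to 3.06 and 2.56 CPM. The higher AT2G02680 went from 75 and 62.4 to 48.6 and 46.4 CPM (-0.53 ± 0.08, adjusted p = 0.000521). Summed over the family, levels were 1080 and 936 CPM in WT Control and 816 and 798 CPM in WT BA, without overlap. Without WT BA 2, 20 members fell, and 18 were called without each of the 8 libraries in turn. In hy5 roots 45 members fell (34.9%, against 8.01% of all genes), 27 of them also in WT. The groups compared there hold no WT library, but both comparisons share 1 estimate of the spread. The test of the difference between genotypes called none of the family. Without hy5 Control 1 and hy5 BA 2, 19 fell in hy5, 16 of them also in WT, against 1.83% of all genes. AT4G10370 was a member that rose, by 0.62 ± 0.09 (adjusted p = 0.000331). The family was picked out after its values had been seen.

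TIR-NBS-LRR disease resistance genes, intracellular immune receptors, had 24 of 87 members lowered (27.6%) and none raised, with a median log2 fold change of -0.285. The shares over all genes tested were 4.33% lowered and 3.88% raised. The falls numbered 10 without WT Control 1 and 8 without WT BA 2. RPS6 had 126 and 102 CPM in WT Control and 84.5 and 65.8 CPM in WT BA (-0.60 ± 0.12, adjusted p = 0.00863), and the family sum was 2180 and 1960 CPM against 1710 and 1540 CPM. In hy5, 14 members fell (16.1%, against 8.01% of all genes), and the test of the difference between genotypes called 1. Without hy5 Control 1 and hy5 BA 2, 1 of the 87 fell in hy5, against 1.83% of all genes. This family, too, was picked out after its values had been seen. Receptor-like kinases had 26 of 310 members lowered (8.39%) and 7 raised (4 without WT Control 1), with 9 lowered without WT Control 1 and 13 without WT BA 2. ABC transporters had 12 of 81 lowered (14.8%) and 3 raised (1 without WT BA 1), with 5 lowered without WT Control 1 and 5 without WT BA 2. The median effective length was 2389 bases in receptor-like kinases and 3715 bases in ABC transporters. Both lengths lie in the longest class of genes described below, of which 10.9% fell.

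**Figure D4:**
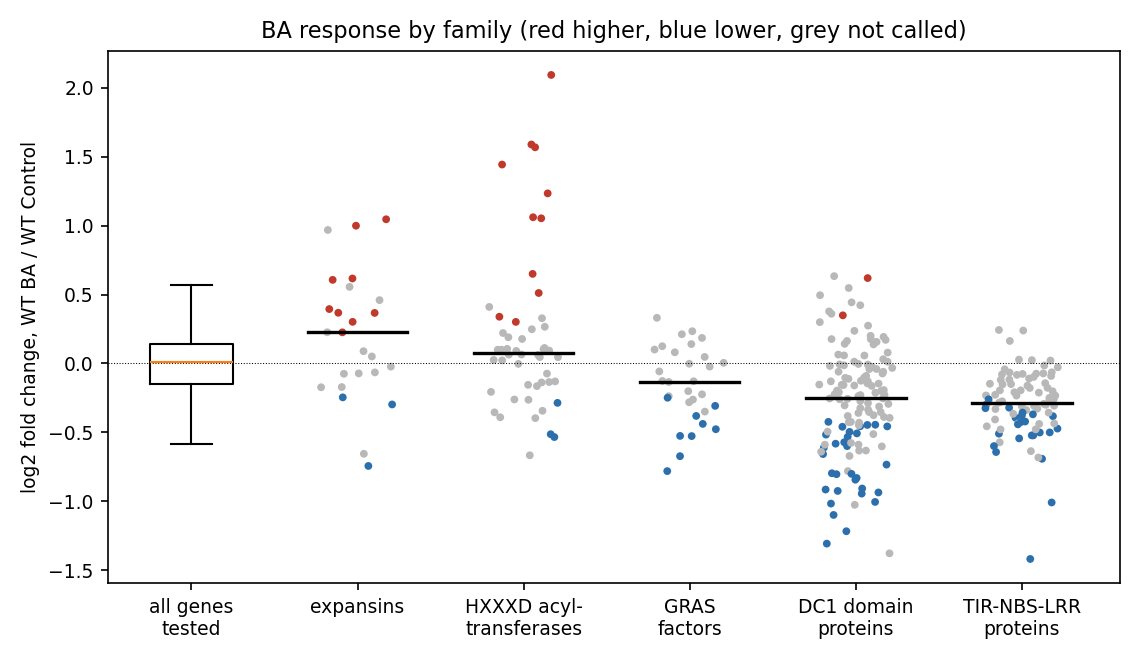
Log2 fold change with BA in WT roots for every tested member of 5 families, 1 point a gene (red called higher, blue called lower, grey not called), with a black bar at the median; the box at the left shows the median and quartiles of all genes tested, with whiskers to 1.5 times the quartile range. DC1 and TIR-NBS-LRR points lie mostly below 0, with medians of -0.255 and -0.285.

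The direction of change moved with transcript length. Among genes with a mean of at least 1 log2 CPM, split into 5 equal classes by effective length, 2.63% of the shortest class and 10.9% of the longest (2165 to 16225 bases) fell, and 5.13% and 1.62% rose. The median log2 fold change went from 0.11 in the shortest to -0.10 in the longest class. For the BA response of hy5 it went from 0.06 to -0.04, and the falls in hy5 are given without a length correction. Single WT libraries differed in the same way. The median deviation of the longest class from the mean of all 8 libraries was 0.085 in WT Control 1 and 0.056 in WT Control 2. It was 0.001 in WT BA 1 and -0.061 in WT BA 2 (log2). When each library's smooth trend with length was removed, a correction chosen after seeing the data, 708 genes rose (3.12%) and 779 fell (3.43%), with 1311 genes called in both analyses. With this length correction, 28 DC1 genes fell (21.7%, median -0.28), against 12 TIR-NBS-LRR genes (13.8%, median -0.14), whose median effective length was 3589 bases. With the same length correction, receptor-like kinases had 15 lowered and 11 raised, ABC transporters 4 lowered and 7 raised, and expansins 5 raised. When trends with both length and GC content were removed, 719 genes rose (3.17%) and 838 fell (3.69%), with 28 DC1 and 13 TIR-NBS-LRR genes lowered. The part that length bias of the libraries plays in these falls was not tested.

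**Figure D5:**
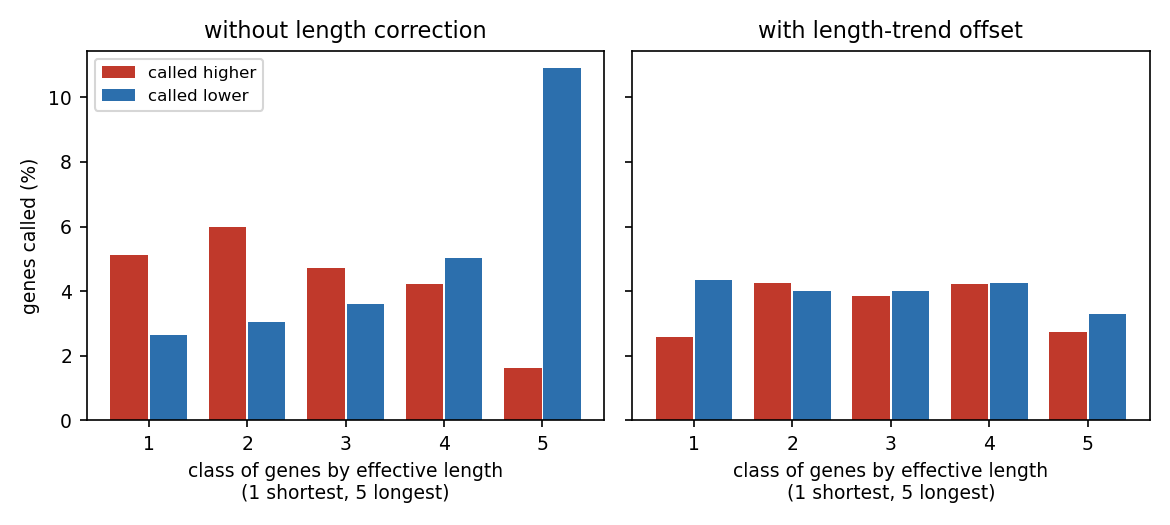
Percent of genes called higher (red) and lower (blue) in each of 5 equal classes of genes by effective transcript length, from shortest (1) to longest (5), without (left) and with (right) removal of each library's trend with length. On the left the share called lower goes from 2.63% to 10.9%; on the right it lies between 3.28% and 4.34%.

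Lists of other hormones' genes had between 0 and 5 members called. For comparison, 3.88% of all genes tested rose and 4.33% fell. In lists this short 1 called gene exceeds either share. The share raised was 27.3% for ethylene synthesis genes and 36.4% for gibberellin genes. Of 11 ethylene synthesis genes 3 rose and none fell. ACS5, an ACC synthase of the rate-limiting step, went from 2.02 and 2.16 to 10.3 and 9.85 CPM (log2 fold change 2.27 ± 0.15, adjusted p = 5.61e-08), and ACS2 from 13.3 and 11.9 to 25.9 and 33.1 CPM (1.23 ± 0.10, adjusted p = 1.56e-06). Of 11 gibberellin genes 4 rose (2 without WT BA 1 or either hy5 Control library, and 2 by DESeq2), including GA2OX2, which inactivates gibberellins, at 0.77 ± 0.09 (adjusted p = 2.04e-05) and GA20OX2, which makes them, at 1.17 ± 0.18 (adjusted p = 0.000662). Of 10 brassinosteroid genes 2 rose, DWF4 by 0.72 ± 0.08 (adjusted p = 2.34e-05) and BR6OX1 by 1.18 ± 0.14 (adjusted p = 5.19e-05), both enzymes of synthesis. The 3 that fell included the receptor BRI1 at -0.28 ± 0.07 (adjusted p = 0.019) and the kinase BIN2 at -0.33 ± 0.07 (adjusted p = 0.00685), and none of the 3 was called without WT BA 2. None of 9 auxin synthesis genes (1 higher without WT Control 1 or WT BA 1) and none of 11 abscisic acid genes was called; the smallest p values there belonged to YUC8 (adjusted p = 0.0794) and LTI65 (adjusted p = 0.113).

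Among lists of root development, that of root hair genes holds regulators together with wall and other genes. It had 4 of 13 members raised (30.8%) and none lowered, where 3.88% of all genes tested rose and 4.33% fell. Fewer were raised with any 1 of WT Control 1, WT Control 2 and WT BA 2 left out. RSL4, a bHLH factor that sets root hair growth, went from 5.82 and 5.39 to 10.7 and 12 CPM (log2 fold change 1.01 ± 0.13, adjusted p = 0.000105), and RSL1 from 3.45 and 4.5 to 8.35 and 8.28 CPM (1.07 ± 0.15, adjusted p = 0.000232). Casparian strip and suberin genes had 4 of 15 raised (2 without WT BA 2), including the suberin regulator MYB41 at 0.79 ± 0.13 (adjusted p = 0.0014) and FAR5, a fatty acyl reductase, at 0.49 ± 0.09 (adjusted p = 0.00336). Of 12 lateral root genes 3 fell (1 without WT Control 1 or WT BA 2) and 1 rose. LBD33 fell from a mean of 0.824 to 0.0813 CPM (adjusted p = 0.000407) and was not called by DESeq2, and LBD29 changed by -0.51 ± 0.13 (adjusted p = 0.0195) but not without WT Control 1 or WT BA 2. In the vasculature, xylem genes had 1 of 12 raised and none lowered, with a median log2 fold change of -0.143, and 4 were lowered without WT Control 2. The 1 that rose, NAC101 (VND6), is known to switch on vessel formation and went from 4.18 and 3.49 to 8.35 and 8.95 CPM (1.17 ± 0.13, adjusted p = 1.85e-05). XND1, a NAC factor that restrains vessel differentiation, fell from 15.7 and 15.1 to 7.99 and 7.51 CPM (-0.99 ± 0.10, adjusted p = 4.44e-06). Cell cycle genes had 1 of 17 called (none without WT Control 1 or WT BA 2) and root meristem genes 1 of 12 (none without WT BA 2), against 8.2% of all genes.

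The list of nitrate and ammonium genes had 2 of 12 raised and 1 lowered (16.7% and 8.33%). Of all genes tested 3.88% rose and 4.33% fell, which are the shares to set beside the counts below. In short lists 1 called gene exceeds them: it made 6.67% of 15 auxin carrier genes and 9.09% of 11 procambium genes. The shares raised and lowered were 15.2% and 8.7% for UMAMIT transporters. The shares lowered were 14.3% for touch and wounding genes and 27.3% for hypoxia genes. NRT2.4, a high-affinity nitrate transporter, went from 0.527 and 0.444 to 2.14 and 1.53 CPM (log2 fold change 1.91 ± 0.30, adjusted p = 0.000585) and was not called by DESeq2. AMT1;1, an ammonium transporter, rose by 0.29 ± 0.09 (adjusted p = 0.0459) and lost the call without WT Control 2, WT BA 1, WT BA 2 or any 1 hy5 library. Outside that list, NRT2.6, of the high-affinity nitrate transporter family, went from 49.3 and 44.6 to 26.4 and 27.5 CPM (log2 fold change -0.80 ± 0.09, adjusted p = 1.65e-05). NRT1.8, the lowered member of the list, which removes nitrate from the xylem sap, fell from a mean of 96.6 to 51.3 CPM (-0.91 ± 0.15, adjusted p = 0.00668), though not without WT Control 2. AT3G45700, of the major facilitator superfamily, went from 71.9 and 60.5 to 165 and 163 CPM (1.31 ± 0.09, adjusted p = 8.5e-08). The cytokinin exporter ABCG14 went from 22.1 and 22.3 to 40.5 and 33.8 CPM (0.74 ± 0.09, adjusted p = 5.27e-05). Of 46 UMAMIT transporters, a family that moves amino acids, 7 rose and 4 fell, with 2 to 3 raised and 2 to 4 lowered when a single WT library other than WT Control 1 was left out, and 2 lowered without WT Control 1. Touch and wounding genes had 2 of 14 lowered (none without WT Control 1 or WT BA 1) and hypoxia genes 3 of 11 (1 with WT Control 1 or WT Control 2 left out), including the ERF73 factor at -0.60 ± 0.09 (adjusted p = 0.000469), and no gene of either list rose. Of the remaining lists, cytokinin breakdown and conjugation had 5 of 9 raised, auxin carriers and their kinases 1 of 15 raised (none without WT BA 2) and 2 lowered (1 with the length correction or when any WT library but WT BA 1 was left out), procambium factors 1 of 11 raised (none without WT Control 1 or WT BA 1), and camalexin and immunity 1 of 8 raised and 2 lowered (0 and 1 without WT BA 1, 1 and 1 without WT Control 1, 1 and 3 without WT Control 2). None of 5 root triterpene genes and none of 12 other ion transport genes was called, but without WT Control 1 the numbers were 4 and 1, all higher.

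Many genes called in the same direction lay next to each other, and the shares are descriptions without a test. Overlapping neighbours, such as GLYI7 and AT1G80165, and tandem copies were kept in the counts. Without strand information reads of overlapping genes cannot be told apart, and what such reads add to the shares was not tested. Of the 879 rising genes, 217 (24.7%) had an immediate tested neighbour that also rose, against 7.5% of 22537 genes. For 2-fold rises the numbers were 33 of 186 (17.7%) against 1.64%. Of 976 falling genes with a position, 192 (19.7%) had a falling neighbour, against 8.38%, and none of 32 genes with a 2-fold fall had one with a 2-fold fall. AT1G19040 and ARR7 lay on opposite strands with 419 bases between their 3′ ends. ARR4 lay between GLP7, a germin-like gene that went from 2.78 and 2.6 to 7.93 and 7.1 CPM, and ZFP5, a zinc-finger gene that went from 29.0 and 25.8 to 109 and 118 CPM (log2 fold changes 1.48 ± 0.14 and 2.05 ± 0.08). Some neighbours were tandem relatives: AT4G15660, AT4G15670, AT4G15680 and AT4G15690 on chromosome 4, all thioredoxin superfamily genes on the plus strand, rose by 2.60, 2.18, 1.11 and 1.39 on the log2 scale. Unrelated neighbours included the cytochrome P450 gene CYP718 and AT2G42860, 154 bases downstream on the same strand, with log2 fold changes of 1.61 and 1.78.

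The strong response recurred in the hy5 libraries. Their counts are not part of the WT fold changes, but both genotypes share the filter, the scaling and 1 estimate of the spread. The 2 sets of calls are therefore not fully separate: a fit of the 4 WT libraries alone called 1365 genes, against 1861. Of the 186 genes raised at least 2-fold in WT, 142 (76.3%) were called higher in hy5, where 3.11% of all genes were, and of the 43 raised at least 4-fold, 39 were. Without hy5 Control 1 and hy5 BA 2, which leaves 1 hy5 library a group, the numbers were 103 of 186 (55.4%) against 0.729% of all genes and 33 of 43. The median log2 fold change of the 186 was 1.47 in WT, where they were chosen, and 1.0 in hy5. Of the 34 genes lowered at least 2-fold in WT, 18 (52.9%) were called lower in hy5, against 8.01% of all genes, or 11 (32.4%) against 1.83% without those libraries. In the reverse direction, 94 (67.1%) of the 140 genes raised at least 2-fold in hy5 were called higher in WT, and 48 (48%) of the 100 lowered there were called lower. AT1G19040 had a log2 fold change of 4.29 in hy5 against 4.24 in WT. The difference of the response between genotypes passed the test at 110 genes (0.485%), 12 of them among the 186, and at 6 genes (0.0262%), 1 of them among the 186, without hy5 Control 1 and hy5 BA 2.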

How the data were processed

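RNA-seq of roots was analysed from 1 deposited table per library. Per the submitters' processing notes, the authors used Salmon and the build TAIR10; the version and strand setting were not stated. The deposited estimated counts of 48332 transcripts were summed to 27628 loci and rounded to whole numbers. The deposited TPM values, scaled by the authors for length and depth, were summed for levels per length. The deposited transcript lengths and effective lengths (the authors' other numeric columns, in bases) served for trends with length. Of the loci, 27420 were in the TAIR10.1 annotation, and 99.59% of matched transcripts had the same length there.

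edgeR 4.0.16 in R 4.3.3 was used: filterByExpr with a minimum count of 10 (about 0.307 CPM), which removed 4946 loci, TMM scaling, 1 robust quasi-likelihood fit with 4 group means over all 8 libraries, the contrast WT BA less WT Control, and Benjamini-Hochberg adjustment over 22682 genes; tests were two-sided, and CPM use TMM-scaled library sizes. Standard errors are the log2 fold change over the root of the F value. In data simulated from the libraries (200 of 22682 genes changed), 71.6, 97 and 100% of genes changed 1.5-, 2- and 4-fold were recovered, with 20 false calls. The changed genes all had a mean above 2 CPM, so recovery of lower genes was not measured. Noise was drawn gene by gene without the libraries' trends with length, so calls due to such trends are not counted there. Both libraries of each group differed beyond sampling noise (chi-square per gene 3.89 to 7.93). Alternatives covered scaling, filter, DESeq2 1.42.0, libraries, length and each left-out library; 2 corrections for trends with length and GC content were chosen after seeing the data.

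Named genes were the 16 largest rises and 12 largest falls among calls whose groups did not overlap and whose mean reached 1 log2 CPM; the 5 higher and 5 lower with the highest TPM among those changed at least 1.5-fold; up to 4 called members of a list and 3 of a family with the smallest p, or the 1 with the smallest p in a list without a call; and HY5. TPR12, RGA1, AT5G01210, the DC1 and TIR-NBS-LRR genes outside the largest changes, and neighbour pairs were named after their values were seen. Families are words of the annotated product. The comparison, lists, families and motifs were chosen with earlier results of these data known. Copies were sought with blastn 2.17.0 (at least 95% identity over 50% of a transcript). Intervals from p-values cover the spread between libraries; counts of reads set the precision of low genes.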

Additional observations from a re-analysis of the deposited data

Results flagged for a closer look

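At 21 of the called genes named by the rule, the BA response of hy5 differed from that of WT by the test of the difference in the shared edgeR fit (adjusted p under 0.05; 110 of 22682 genes passed). In all 21 the value, the log2 response of hy5 less that of WT, was negative, and each had risen in WT. It was -1.25 for AT2G30540, -1.19 for RSL4, -1.15 for ACS5, -1.14 for AT4G22620 and -1.04 for AT5G47980. It was -0.83 for AT5G19110, -0.78 for AT3G50300, -0.78 for GLP9, -0.73 for AT3G45430, -0.71 for AT3G13610 and -0.67 for RTFL8. It was -0.65 for GSTU26, -0.65 for GA2OX2, -0.63 for WRKY23, -0.62 for ACS8 and -0.59 for ARR4. It was -0.56 for AT4G38810, -0.54 for AT1G72140, -0.53 for NAI1, -0.47 for bZIP7 and -0.47 for HAT2. RSL4, for example, had log2 fold changes of 1.01 in WT and -0.18 in hy5, and ACS5 had 2.27 and 1.12. Without hy5 Control 1 and hy5 BA 2, the 2 libraries with many near-whole counts, none of the 21 passed and 6 genes passed in all. These genes had been chosen for their call in WT, which favours a larger value there.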

How the results depend on the processing

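The number of called genes was 1861, and 932 without WT Control 1 and 841 without WT BA 2; leaving out each library in turn gave 841 to 2220. Higher genes numbered 879 (513 to 945, lowest without WT BA 2) and lower genes 982 (320 to 1275, lowest without WT Control 1). Rises of at least 2-fold numbered 186 (172 to 186). Falls of at least 2-fold numbered 34 (17 to 86) and 21 by DESeq2; the cause was not tested. DESeq2 called 1497 genes in all, the fit of the 4 WT libraries 1365, and scaling by library size alone 1993 (783 higher, 1210 lower). With the length trend removed 1487 were called, and with length and GC trends 1557. The replicate numbers do not pair the libraries: deviations of same-numbered libraries correlated at -0.068 to 0.024, and the fit with the replicate block called 1635 genes. HY5, not called, turned from -0.03 to 0.01 without WT Control 1 and was -0.06 without WT Control 2. Depth limits low genes: 50 of the 186 strong rises and 19 of the 34 strong falls had a mean below 1 log2 CPM.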
